A study of Mus musculus with 35 samples.

Results

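CD8 T cells sorted from the liver as CXCR6pos were set against CD8 T cells sorted from the spleen as CX3CR1neg, all from C57BL/6 mice aged 13 months on the diet labelled CD-HFD. The comparison used 5 liver and 6 spleen libraries (a labelled replicate 6 of the liver group was not analysed here), 11 of the 34 columns of the count table that could be matched to a labelled sample. The liver CXCR6neg fraction under CD-HFD (6 libraries) and the same liver CXCR6pos and spleen CX3CR1neg populations under the diet labelled ND (6 and 5 libraries), from mice of the same strain and age, served for side-by-side values. The series profiled CD8 T cells of both organs under both diets. Tissue, sorting gate and any difference in handling between the organs changed together between the groups and cannot be told apart. The labels do not say whether libraries of a group came from separate animals, so the p-values measure the spread between these libraries only.

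CXCR6 is a chemokine receptor whose ligand CXCL16 is displayed in the liver, and CXCR6-bearing CD8 T cells there include cells that stay in the organ. T cells that recirculate use S1PR1 to leave tissue and CCR7 to enter lymph nodes, programmes that the factors KLF2 and TCF7 help to maintain. Repeated antigen contact is known to bring up inhibitory receptors such as PD-1 together with the factor TOX, while effector cells carry granzymes and make interferon gamma.

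RNA was read as bulk 3′ tags of poly(A) RNA with molecular barcodes, and the deposited values are counts per gene. Total counts ran from 57168 to 369055 (median 182006) in the liver libraries and from 225036 to 978896 (median 523614.0) in the spleen libraries, and liver replicate 5 was the shallowest of the 11. Levels are given as CPM, a gene's count over the TMM-scaled library total times 1e+06, and fold changes as log2 of liver CXCR6pos over spleen CX3CR1neg with the standard error (SE) of edgeR's quasi-likelihood fit. After ±, a log2 value carries its SE and a CPM mean its SD. A gene was called higher or lower where the Benjamini-Hochberg adjusted p was under 0.05 over the 6174 genes tested. In bulk samples, fewer cells of a type and less RNA per cell cannot be told apart. Ribosomal protein genes took 6.84% to 8.37% of the counts in the liver libraries and 11.5% to 12.5% in the spleen libraries, and a list of 34 immediate-early genes took 1.41% to 1.50% and 0.201% to 0.270%. On the first principal component (42.0% of the variance of the 11 libraries) all liver libraries (scores of -62.04 to -16.73) lay apart from all spleen libraries (21.40 to 27.39). Liver replicate 5 stood at -62.04, the other liver libraries at -23.58 to -16.73, and it also lay apart on the second (22.9%). For some genes neighbouring replicate numbers were alike. Gzma had 461, 435, 1419, 1293 and 2140 CPM in liver replicates 1 to 5. H2-Eb1, an MHC class II gene, had 390.5, 343, 470.5, 515, 840 and 889 CPM in spleen replicates 1 to 6. Others, such as Bhlhe40 in liver (721, 861, 896, 1013 and 725 CPM), showed no such pairs. Whether neighbours share a source was not tested. If they do, SEs, p-values and leaving out 1 library overstate replication.

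The labelled cell type and gates were checked first. Cd8b1, the beta chain of CD8, averaged 1903 ± 229.6 CPM in the liver libraries and 1917 ± 103 CPM in the spleen libraries (SD, n = 5 and 6) and was not called (log2 difference 0.01 ± 0.10, adjusted p 0.976). Cxcr6, the gate gene of the liver fraction (chromosome 9, 123806475 to 123811760), had 573, 601, 803, 776 and 867 CPM in the liver libraries, against 126 to 264 (median 196) CPM in the spleen libraries, so the groups did not overlap; the gate chose the liver cells by its product. Cx3cr1, the gene of the spleen gate, averaged 35.8 ± 22.3 CPM in liver and 11.7 ± 8.28 CPM in spleen and was called higher in liver (1.94 ± 0.40, adjusted p 6.42e-05). The spleen cells had been gated as negative for its protein. Among 19 genes of T cell identity, all tested, 11 were called higher in the liver libraries and 1 lower, where 12.5% of all genes tested were called higher and 13.3% lower. Cd3e, a signalling chain of the T cell receptor complex, rose by 1.03 ± 0.09 (adjusted p 5.24e-17), and Cd3g, another of its chains, by 1.07 ± 0.10. The gene that was lower was Thy1, a surface glycoprotein of T cells (-0.39 ± 0.12, adjusted p 0.00667).

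Markers of other cells moved with the comparison. The summed CPM of the 16 B cell and MHC class II genes was 478 to 909 in the liver libraries and 5476 to 7824 in the spleen libraries. Of the 9 tested, 8 were called lower in liver, where 13.3% of all genes tested were called lower and 12.5% higher. The defining B cell gene Ms4a1 averaged 3.71 ± 5.39 CPM in liver (4 counts in all) and 7.75 ± 3.68 CPM in spleen (25 counts), and Cd79a had 1 count in liver and 7 in spleen. Clec9a, Batf3 and Flt3, genes of cross-presenting dendritic cells, had 0 counts in every liver library and 31, 42 and 29 counts over the spleen libraries. None of the 8 conventional dendritic cell genes reached the expression filter, and their summed CPM was 0 to 12.5 in liver and 53.8 to 123 in spleen. Of 15 plasmacytoid dendritic cell genes, all tested, 3 were called lower (1 without liver replicate 1, 2, 3 or 4 or spleen replicate 3), with summed CPM of 212 to 293 in liver and 470 to 796 in spleen. Of 9 CD4 and regulatory T cell genes 4 were tested and all 4 were called higher, Ctla4 and Tnfrsf4 (described below) among them, with summed CPM of 366 to 811 in liver and 84.0 to 240.3 in spleen. The defining genes Cd4 and Foxp3 had 1 count each in liver (both 0.577 ± 1.29 CPM) and 12 and 13 in spleen (4.38 ± 2.64 and 3.11 ± 2.55 CPM). Alb, the albumin gene of hepatocytes, averaged 7.95 ± 7.16 CPM in liver (6 counts in all) and 3.22 ± 2.10 CPM in spleen (11 counts), with no test at this depth, and Clec4f of Kupffer cells had 0 counts in both. Hba-a1, a haemoglobin chain of red cells, had 2428, 1559, 878, 1033 and 1645 CPM in liver, against 536 to 1079.6 (median 569.8) CPM in spleen. Its call (1.11 ± 0.38, adjusted p 0.0299) was lost in 10 of 21 alternative analyses, among them those without liver replicate 1 or 2 or spleen replicate 1, 2, 5 or 6. The part of these cells in the results below was not tested.

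In all, 770 genes (12.5% of those tested) were called higher and 819 (13.3%) lower in the liver CXCR6pos libraries, 1589 or 25.7% together, with a median log2 difference over all genes of -0.01. More than 4-fold differences were called for 93 genes higher and 95 lower. Every liver library was above every spleen library for 396 genes (6.41%) and below every one for 517 (8.37%). By size, the genes that rose most included Il10, Ier5l, Spp1, Nr4a2, Dusp1, Adgrg1, Rgs16, Ctla4, Rgs1 and Bhlhe40. Those that fell most included G0s2, Ncf1, Plbd1, Cd81, Mpeg1 and Nt5e.

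**Figure D1:**
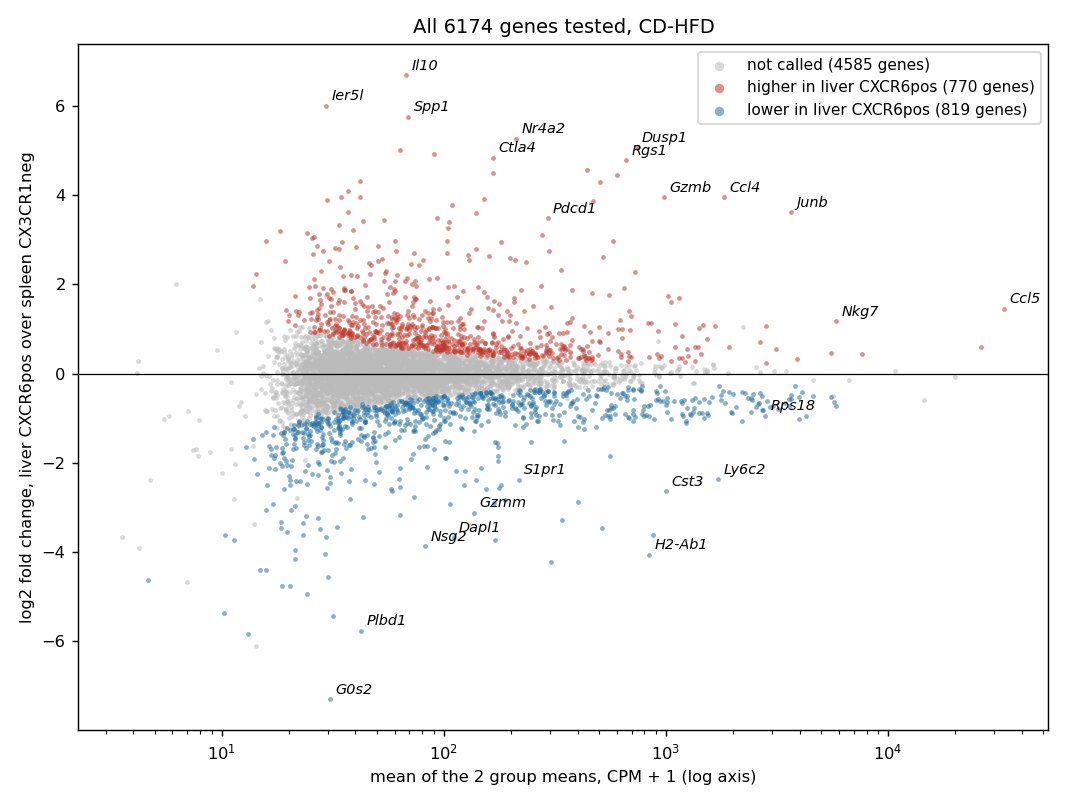
Each point is 1 of the 6174 genes tested, with its log2 fold change of liver CXCR6pos over spleen CX3CR1neg on the y axis and the mean of both group means in CPM + 1 on a log x axis. The 770 genes called higher lie above 0 and the 819 called lower below it, with Il10 at the top (6.69) and G0s2, which has no counts in liver, at the bottom.

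Promoters of the genes with the largest rises were read for short motifs, searched on both strands in RefSeq windows of GRCm38.p6 that run from 250 bases before to 50 after the start of a gene. Of the 93 genes called higher by more than 4-fold, 65 had such a window. The letters TGANTCA, called AP-1 letters here, were searched with any base at N. The site of Fos and Jun dimers has C or G there, so the counts also take in other letters. They were in 10 of these 65 windows (15.4%), against 3 of 75 (4.0%) for genes called lower by more than 4-fold. Among the genes tested they were in 220 of 4577 (4.81%), and in 7.93% of all 27025 windows. Without the 4-fold limit they were in 33 of 592 windows of genes called higher (5.57%). For genes called lower they were then in 21 of 541 (3.88%). The 10 genes higher by more than 4-fold were Tnfaip3, Osgin1, Gzmb, Prdm1, Cd244a, Havcr2, Glrx, Sdcbp2, Fgl2 and Hilpda. The cyclic AMP response element TGACGTCA was in 2 of the 65 (3.08%), Dusp1 and Ppp1r15a, against 3.74% for the genes tested and 1.88% of all windows. Its core TGACGT, which every full element contains, was in 15.4%, against 13.9% and 7.64%. The FOXO letters TGTTTAC were in 6.15%, against 2.64% and 3.55%, and the TCF letters CTTTGNT in 10.8%, against 13.5% and 18.6%. These are counts of letters in sets chosen by this same contrast, with no test, and a match is not a measured site. The 250 bases before the start are shown for 4 genes described further on. They are the phosphatase gene Dusp1, the granzyme gene Gzmb, the repressor gene Prdm1 and the inhibitory receptor gene Havcr2. Dusp1 holds the full response element and the others the AP-1 letters, and these stand in capitals. At the base N, Gzmb has G, while Prdm1 has A and Havcr2 has T.
Dusp1 (chr17:26508473-26508722, minus strand): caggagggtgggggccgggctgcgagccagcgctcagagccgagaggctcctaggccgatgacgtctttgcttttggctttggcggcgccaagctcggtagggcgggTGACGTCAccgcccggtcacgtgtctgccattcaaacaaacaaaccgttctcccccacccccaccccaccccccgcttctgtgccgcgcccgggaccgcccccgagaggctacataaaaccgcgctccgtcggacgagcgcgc
Gzmb (chr14:56262335-56262584, minus strand): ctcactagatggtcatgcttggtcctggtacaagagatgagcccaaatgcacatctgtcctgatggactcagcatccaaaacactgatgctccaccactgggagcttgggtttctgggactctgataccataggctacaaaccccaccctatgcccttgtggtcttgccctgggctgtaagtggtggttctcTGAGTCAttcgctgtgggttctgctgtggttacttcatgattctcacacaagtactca
Prdm1 (chr10:44458749-44458998, minus strand): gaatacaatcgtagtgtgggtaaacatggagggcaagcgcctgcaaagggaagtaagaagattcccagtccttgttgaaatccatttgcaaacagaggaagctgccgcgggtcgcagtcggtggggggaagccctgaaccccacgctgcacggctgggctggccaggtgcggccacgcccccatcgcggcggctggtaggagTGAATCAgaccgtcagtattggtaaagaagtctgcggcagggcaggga
Havcr2 (chr11:46454681-46454930, plus strand): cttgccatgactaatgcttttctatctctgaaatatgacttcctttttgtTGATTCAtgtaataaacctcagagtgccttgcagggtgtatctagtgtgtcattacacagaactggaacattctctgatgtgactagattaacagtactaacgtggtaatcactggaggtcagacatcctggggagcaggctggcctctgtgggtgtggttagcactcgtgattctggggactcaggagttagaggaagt

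Genes of tissue residency were mostly higher in the liver CXCR6pos libraries. Of 18 tested, 14 rose, Cxcr6 of the gate among them, and 2 fell, with a median log2 difference of 1.68. By comparison, 12.5% of all genes tested were called higher and 13.3% lower. Rgs1, a regulator that dampens chemokine receptor signalling, had 1412, 1445, 1425, 1223 and 831 CPM in the liver libraries, against 28.0 to 82.6 (median 49.6) CPM in the spleen libraries. No library of either group came near the other, and the log2 rise was 4.79 ± 0.26 (adjusted p 1.28e-14). Bhlhe40, a transcription factor of resident CD8 T cells, had 721, 861, 896, 1013 and 725 CPM in liver, against 21.0 to 57.6 (median 38.1) CPM in spleen, a rise of 4.56 ± 0.16 (adjusted p 1.96e-43). Cd69, whose product holds S1PR1 inside the cell, had 284, 246, 311, 265 and 159 CPM in liver, against 63.1 to 100.4 (median 81.8) CPM in spleen, and rose by 1.64 ± 0.16. For both genes the lowest liver library was above the highest spleen library. Prdm1, which encodes the repressor Blimp-1 and whose promoter is shown above, had 59.1, 97.9, 112, 101 and 106 CPM in liver, against 4.30 to 19.4 (median 9.50) CPM in spleen, and rose by 3.43 ± 0.33 (adjusted p 2.21e-16). Itga1, the integrin chain CD49a of many resident cells, stood at 18.0 ± 10.8 CPM in liver and 14.2 ± 9.72 CPM in spleen and was not called (-0.15 ± 0.51, adjusted p 0.873). It had only 14 counts over the liver libraries and 49 over the spleen libraries. The CPM means weigh each library alike whatever its depth, so their order can differ from the sign of the log2 value. Itgae, the chain CD103, averaged 4.99 ± 5.22 CPM in liver and 11.2 ± 5.37 CPM in spleen and did not reach the filter. The members that fell were Jaml, an adhesion molecule (-1.64 ± 0.28), and Xcl1, a chemokine that attracts cross-presenting dendritic cells (-1.06 ± 0.33). The call of Xcl1 was lost when either liver replicate 1 or 2 was left out (adjusted p 0.0553 and 0.0652).

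Adgrg1, an adhesion G protein-coupled receptor found on cytotoxic lymphocytes (chromosome 8, 94974751 to 95014217), was among the sharpest rises. It had 82.7, 97.9, 149, 170.2 and 106 CPM in liver, against 1.37 to 9.71 (median 3.18) CPM in spleen, a log2 rise of 5.0 ± 0.40 (adjusted p 5.31e-21). Its relative Adgrg5 had 11.8, 10.1, 18.7, 28.9 and 17.7 CPM in liver, against 96.6 to 128 (median 105) CPM in spleen. The groups were again fully apart but in the opposite order, and Adgrg5 fell with a log2 difference of -2.54 ± 0.29 (adjusted p 2.02e-12).

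Genes of egress and recirculation were mostly lower. Of 16 tested, 12 fell and 1 rose, with a median log2 difference of -0.89, where 13.3% and 12.5% of all genes tested did. S1pr1, the sphingosine 1-phosphate receptor that guides exit from tissue, had 47.2, 60.8, 80.9, 80.8 and 88.4 CPM in the liver libraries, against 316 to 414 (median 350.4) CPM in the spleen libraries (-2.38 ± 0.18, adjusted p 7.68e-23). Ccr7, the chemokine receptor for lymph node entry, had 53.2, 57.4, 56.0, 26.0 and 35.4 CPM in liver, against 186 to 355 (median 253) CPM in spleen (-2.59 ± 0.42, adjusted p 1.8e-05). The ranges did not overlap for either gene. Ly6c2, a surface antigen of memory CD8 T cells, had 602, 574, 479, 488 and 707 CPM in liver, against 2545 to 3307 (median 2739) CPM in spleen, again without overlap (-2.37 ± 0.12). Klf2, the transcription factor that drives S1pr1, differed little: 703, 496, 598, 563 and 867 CPM in liver, against 505 to 938 (median 799.8) CPM in spleen. These ranges overlapped, and the call (-0.35 ± 0.12, adjusted p 0.0141) was lost in 7 of 21 alternatives, among them leaving out liver replicate 2 or 4 or spleen replicate 3.

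Genes of naive and stem-like cells fell further. Of 18 tested, 14 fell and 1 rose, with a median of -2.53, against -0.01 over all genes tested. The shares of all genes tested that were called lower and higher were 13.3% and 12.5%. Tcf7, which encodes the factor TCF-1, had 35.4, 70.9, 31.1, 54.8 and 88.4 CPM in the liver libraries, against 258 to 367 (median 299) CPM in the spleen libraries (-2.49 ± 0.19, adjusted p 1.28e-22). Il7r, the interleukin-7 receptor chain of long-lived T cells, had 65.0, 50.6, 24.9, 46.2 and 35.4 CPM in liver, against 222 to 428 (median 323) CPM in spleen (-2.84 ± 0.23, adjusted p 1.02e-14). In both genes the highest liver library was under the lowest spleen library. Lef1, a relative of Tcf7, fell with -2.40 ± 0.28, and Satb1, a chromatin organiser of thymocytes and naive T cells, with -2.64 ± 0.32 (-3.30 without liver replicate 4). Id3, an inhibitor of E proteins found in memory precursors, fell with -2.60 ± 0.35 (-3.47 without liver replicate 2), while its relative Id2, linked to effector cells, rose by 1.75 ± 0.23. Nsg2, a neuronal vesicle protein gene also read in naive T cells, fell with -3.87 ± 0.40, and Dapl1 with -3.67 ± 0.83 (adjusted p 4.14e-10 and 0.00118). Dapl1 varied between the liver libraries, at 29.5, 13.5, 6.22, 5.77 and 53.0 CPM. The gene that rose was Cd28, the costimulatory receptor (1.13 ± 0.16, adjusted p 3.6e-09).

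**Figure D2:**
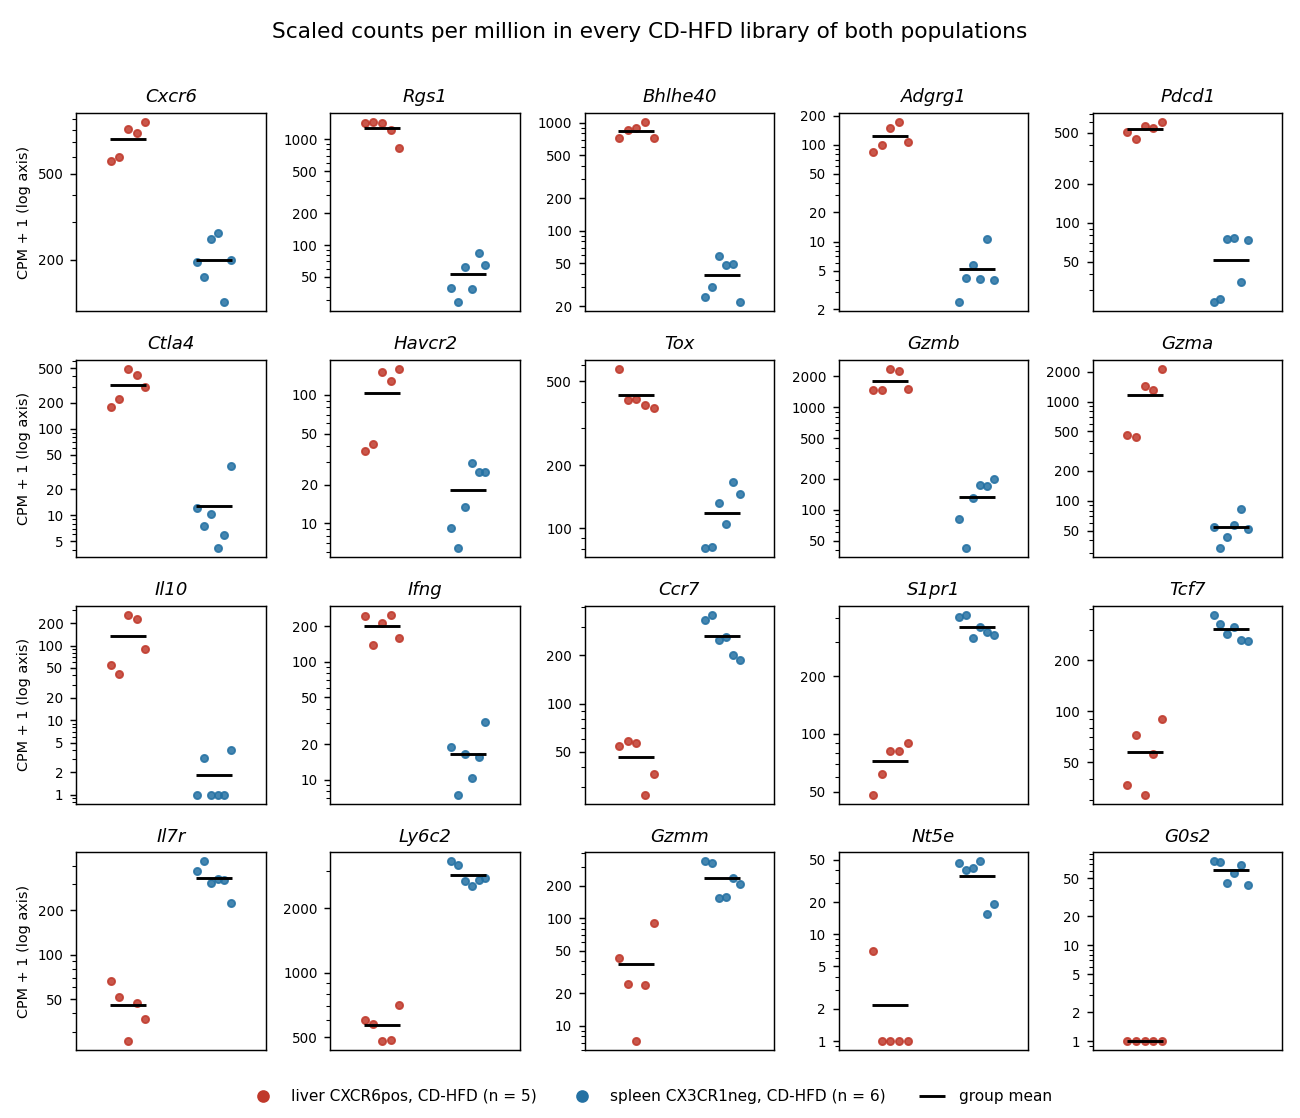
Each point is 1 library, liver CXCR6pos (n = 5) left and spleen CX3CR1neg (n = 6) right, in replicate order within a group. The y axis is CPM + 1 on a log scale, each panel has its own range, and the bar is the group mean. The libraries of the groups do not overlap in any of the 20 genes shown, from Cxcr6 (573 to 867 CPM in liver, 126 to 264 CPM in spleen) to G0s2 (0 CPM in every liver library).

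Inhibitory receptors and factors of exhaustion were higher nearly throughout. Of 24 tested, 23 were called higher and 1 lower, with a median log2 difference of 2.28, where 12.5% and 13.3% of all genes tested were. For 18 of them every liver library was above every spleen library, against 6.41% of all genes tested. Pdcd1, the gene of PD-1 (chromosome 1, 94038305 to 94052553), had 508, 446, 566, 545 and 601 CPM in the liver libraries, against 23.3 to 75.3 (median 53.0) CPM in the spleen libraries, a rise of 3.48 ± 0.22 (adjusted p 4.47e-15). All liver libraries were above all spleen libraries. Ctla4, a receptor that competes with CD28 for its ligands (chromosome 1, 60887000 to 60915832), had 177, 216, 492, 416 and 301 CPM in liver, against 3.14 to 36.1 (median 7.90) CPM in spleen, a rise of 4.84 ± 0.36 (adjusted p 5.38e-12). Havcr2, the gene of TIM-3 whose promoter is shown above, had 35.4, 40.5, 149, 127 and 159 CPM in liver, against 5.38 to 28.2 (median 18.2) CPM in spleen, a rise of 2.74 ± 0.36 (adjusted p 2.14e-09). For both genes liver replicates 1 and 2 were lowest of the liver libraries, yet above all spleen libraries. Tigit, another inhibitory receptor, rose by 3.48 ± 0.38 (4.25 without spleen replicate 3), and Lag3, which binds MHC class II, by 3.63 ± 0.41, although liver replicate 5 had no Lag3 count. Tox, the transcription factor of exhausted CD8 T cells, had 573, 405, 411, 387 and 371 CPM in liver, against 79.5 to 165 (median 117) CPM in spleen, a rise of 1.97 ± 0.20 (adjusted p 5.79e-10). Entpd1, the ectonucleotidase CD39 that breaks down ATP, rose by 2.55 ± 0.22, and Cd38, an ectoenzyme that consumes NAD, by 2.45 ± 0.27. Nt5e, the ectonucleotidase CD73 that makes adenosine, went the other way, with 1 count over all liver libraries and 119 over all spleen libraries, a ratio of 38.8 (95% counting interval 6.83 to 1545). The member that fell was Btla, an inhibitory receptor of resting lymphocytes, with 3 counts in liver and 102 in spleen, a ratio of 11.1 (3.69 to 54.6); without liver replicate 2 its log2 difference was -4.22. The weakest of the 23 calls was Eomes, a T-box factor (0.58 ± 0.22, adjusted p 0.0422), which was lost in 12 of 21 alternatives, among them those without liver replicate 1, 2, 3 or 5 or spleen replicate 1, 2, 3 or 5. Its relative Tbx21 was called lower (-0.47 ± 0.16) and lost that call in 5, among them those without liver replicate 1 or 2 or spleen replicate 1.

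Among 34 transcription factors of CD8 T cells tested, 16 rose and 10 fell (median 0.55), against 12.5% and 13.3% of all genes tested. Maf, a factor linked to IL-10 production, had 207, 145, 461, 288 and 159 CPM in the liver libraries, against 5.38 to 56.5 (median 27.0) CPM in the spleen libraries, and rose by 3.61 ± 0.38 (adjusted p 1.03e-08). Batf, an AP-1 family factor, rose by 1.87 ± 0.16, and Nfil3, a bZIP repressor, by 2.76 ± 0.41. Myc, a driver of cell growth, fell with -1.21 ± 0.20 (adjusted p 2.02e-07).

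**Figure D3:**
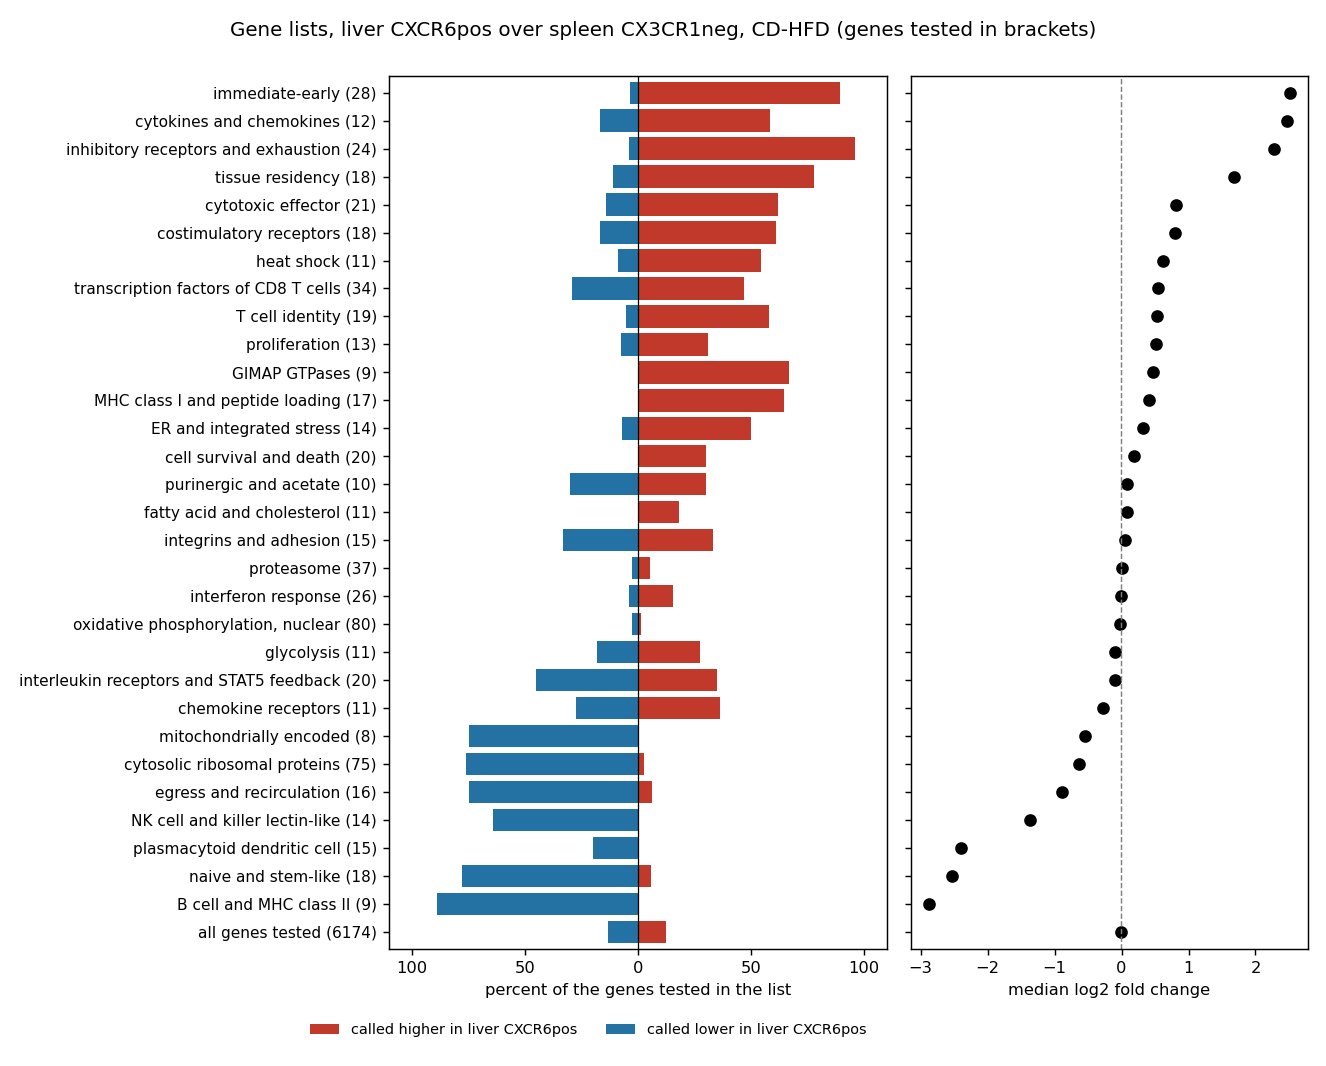
Rows are the gene lists with 8 or more genes tested (number tested in brackets), ordered by median, with all 6174 genes tested in the bottom row. Left, the percent of tested genes called higher (red, to the right) and lower (blue, to the left) in liver CXCR6pos. Right, the median log2 fold change, with the median of all genes as a dashed line. Immediate-early (2.52) and inhibitory receptor lists (2.28) lie near the top, and naive (-2.53) and B cell and MHC class II genes (-2.88) near the bottom.

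Cytotoxic genes were mostly higher, with an exception among the granzymes. Of 21 tested, 13 rose and 3 fell (median 0.82), against 12.5% and 13.3% of all genes tested. Gzmb, the granzyme that cleaves caspases and whose promoter is shown above, had 1477, 1475, 2384, 2239 and 1521 CPM in the liver libraries, against 40.9 to 198 (median 149.6) CPM in the spleen libraries, a rise of 3.96 ± 0.35 (adjusted p 4.32e-10). Gzma, a tryptase granzyme, had 461, 435, 1419, 1293 and 2140 CPM in liver, against 32.3 to 82.6 (median 52.3) CPM in spleen, a rise of 4.45 ± 0.44 (adjusted p 3.77e-09). Liver replicates 1 and 2 were again lowest within their group, and neither gene had overlapping ranges. Gzmk, a granzyme of memory-like effector cells, rose by 1.92 ± 0.28, Prf1, the pore-forming perforin, by 0.89 ± 0.13, and Fasl, which triggers the death receptor on target cells, by 2.50 ± 0.15. Gzmm, a granzyme of innate-like lymphocytes, had 41.4, 23.6, 6.22, 23.1 and 88.4 CPM in liver, against 154 to 334 (median 219) CPM in spleen, and fell with -3.12 ± 0.38 (adjusted p 1.42e-07). Nkg7, a granule membrane protein of cytotoxic lymphocytes, rose by 1.17 ± 0.09 to 8094 ± 509 CPM in liver, against 3606 ± 459 CPM in spleen (mean ± SD, n = 5 and 6).

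Of 12 cytokine and chemokine genes tested, 7 rose and 2 fell (median 2.47), or 1 fell without liver replicate 1 or 2. Over all genes tested the shares were 12.5% higher and 13.3% lower. Il10, the gene of the cytokine interleukin-10 that restrains antigen-presenting cells (chromosome 1, 131019845 to 131024974), had 53.2, 40.5, 255, 225 and 88.4 CPM in the liver libraries, against 0 to 3.0 (median 0) CPM in the spleen libraries. It had 145 counts over the liver libraries and 3 over the spleen libraries, a ratio of 148 after scaling (95% counting interval 49.8 to 728) and a log2 rise of 6.69 ± 0.67 (adjusted p 3.57e-09). All liver libraries held Il10 counts and stood above all spleen libraries, with replicates 1 and 2 lowest, and without spleen replicate 2 the log2 rise was 7.33. Ifng, the gene of interferon gamma, had 242, 138, 212, 248 and 159 CPM in liver, against 6.46 to 30.0 (median 15.1) CPM in spleen, a rise of 3.79 ± 0.29 (adjusted p 1.52e-13). Tnf, a cytokine often made with it, had 11.8, 20.2, 56.0, 31.7 and 17.7 CPM in liver, against 6.01 to 26.5 (median 8.62) CPM in spleen. Its ranges overlapped and it was not called (0.85 ± 0.59, adjusted p 0.332). Csf1, the growth factor of macrophages, had 47.2, 54.0, 93.4, 118 and 70.7 CPM in liver, against 0 to 21.0 (median 2.24) CPM in spleen, and rose by 4.31 ± 0.49 (5.46 without spleen replicate 6, which held the highest spleen value). Ccl3 and Ccl4, chemokines made by activated T cells, rose by 3.86 ± 0.38 and 3.95 ± 0.30, and Ccl5, a chemokine of memory and effector T cells, by 1.45 ± 0.10 to 48830 ± 5335 CPM in liver, against 17860 ± 3779.7 CPM in spleen (mean ± SD). Cxcr4, the receptor for CXCL12, rose by 1.79 ± 0.37. Spp1, the secreted matrix protein osteopontin, was uneven within the liver group, at 0, 0, 280.1, 286 and 106 CPM, against 0 to 4.86 (median 1.61) CPM in spleen. It was absent from the counts of liver replicates 1 and 2, so the ranges overlapped despite the call (5.76 ± 0.97, adjusted p 3.2e-05; 5.04 without liver replicate 4). Coch, a secreted protein best known from the inner ear, showed a like order within the group, at 88.6, 105, 604, 479 and 283 CPM in liver, against 4.11 to 48.6 (median 10.9) CPM in spleen (4.49 ± 0.50, adjusted p 3.76e-08).

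Interleukin receptors and STAT5 feedback genes went both ways, with 7 of 20 tested higher and 9 lower (median -0.10). The shares over all genes tested were 12.5% and 13.3%. Cish, a STAT5 target that feeds back on cytokine signalling, had 129.9, 142, 143, 129.8 and 124 CPM in the liver libraries, against 16.1 to 43.7 (median 24.5) CPM in the spleen libraries, a rise of 2.56 ± 0.27 (adjusted p 6.37e-13). Il10ra, the ligand-binding chain of the IL-10 receptor, rose by 1.42 ± 0.17 (adjusted p 9.49e-12). Il6ra, the IL-6 receptor of naive T cells, had 0, 13.5, 18.7, 14.4 and 17.7 CPM in liver, against 92.3 to 148 (median 105) CPM in spleen, and fell with -3.17 ± 0.49 (adjusted p 6.39e-06). Il18r1, a chain of the IL-18 receptor, fell with -2.12 ± 0.29 (adjusted p 2.22e-09).

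Immediate-early genes, which cells transcribe soon after a stimulus, were mostly higher. Of 28 tested, 25 rose and 1 (Myc) fell, with a median log2 difference of 2.52, where 12.5% and 13.3% of all genes tested did. For 23 every liver library was above every spleen library, against 6.41% of all genes tested. Their summed CPM was 14270 to 16080 in the liver libraries and 2117 to 2847 in the spleen libraries. Junb, a partner of Fos in AP-1, had 6763, 6450, 6735, 7132 and 6720 CPM in liver, against 384 to 763 (median 552) CPM in spleen, a rise of 3.62 ± 0.11 (adjusted p 3.15e-50). Dusp1, a phosphatase that switches off MAP kinases and whose promoter is shown above, had 1553, 1566, 1519, 1549 and 955 CPM in liver, against 23.7 to 68.5 (median 39.0) CPM in spleen, a rise of 5.08 ± 0.23 (adjusted p 2.21e-16). The liver libraries were nearly level for Junb, and liver replicate 5 was lowest for Dusp1. Nr4a2, an orphan nuclear receptor induced by T cell receptor signals, had 419, 368, 486, 441 and 336 CPM in liver, against 6.01 to 21.9 (median 7.94) CPM in spleen, a rise of 5.27 ± 0.28 (adjusted p 9.44e-18), and its relative Nr4a1 rose by 3.91 ± 0.30. Tnfaip3, the NF-kB feedback inhibitor A20, had 856, 1104, 939.9, 964 and 955 CPM in liver, against 18.8 to 79.5 (median 48.5) CPM in spleen, a rise of 4.29 ± 0.16. Fos rose by 2.98 ± 0.28, Jun by 2.66 ± 0.27, Klf6, a zinc finger factor, by 2.61 ± 0.13 and Ppp1r15a, which reverses the block on translation under stress, by 3.12 ± 0.16. The inhibitory receptor list holds Nr4a1 and Nr4a2 as well.

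The counts of this paragraph stand beside 12.5% of all genes tested called higher and 13.3% called lower. Of 14 genes of the endoplasmic reticulum and integrated stress response tested, 7 rose and 1 fell (median 0.32). Hspa5, the chaperone BiP, had 904, 1002, 1052, 1125 and 831 CPM in the liver libraries, against 306 to 459.7 (median 375) CPM in the spleen libraries, and rose by 1.41 ± 0.11. Atf4, the central factor of the integrated stress response, rose by 1.31 ± 0.15, and Ddit4, an inhibitor of mTOR, fell with -1.97 ± 0.37. Of 11 glycolysis genes 3 rose and 2 fell, of 11 fatty acid and cholesterol genes 2 rose, and of 80 nuclear genes of oxidative phosphorylation 1 rose and 2 fell, with medians of -0.10, 0.07 and -0.02. Of 11 heat shock genes 6 rose and 1 fell (median 0.61), the fall being lost on leaving out most single libraries. Slc2a3, a glucose transporter, rose by 1.34 ± 0.26. Of 75 cytosolic ribosomal protein genes 57 fell and 2 rose (median -0.64), among them Rps18 at 1892 ± 223 CPM in liver and 3679 ± 389.6 CPM in spleen (mean ± SD, log2 difference -0.95 ± 0.10). Of 8 genes encoded in the mitochondrion 6 fell (median -0.55). Of 17 genes of MHC class I and peptide loading 11 rose and none fell, by little (median 0.41), such as B2m, the shared light chain, by 0.45 ± 0.09 and Tap2, a peptide transporter chain, by 0.83 ± 0.13. Of 26 interferon response genes 4 rose and 1 fell (median -0.01), with Isg15, a ubiquitin-like modifier, at 1.72 ± 0.23. Of 13 proliferation genes 4 rose and 1 fell (median 0.51), with Hmgb2, a chromatin protein of cycling cells, at 0.91 ± 0.13. In the lists of this group, counts of 1 or 2 genes moved by 1 or 2 when single libraries were left out.

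Among the genes that fell most were several with few or no counts in liver. G0s2, an inhibitor of fat breakdown also linked to quiescence of T cells, had 0 counts in every liver library and 196 over the spleen libraries, where it stood at 42.1 to 74.0 (median 62.2) CPM. It was at least 21.3-fold lower when 3 counts over the liver group are taken as the limit. Ncf1, a subunit of the NADPH oxidase, had 0 and 66 counts, at least 7.17-fold lower. Cd81, a tetraspanin of lymphocytes, had 1 count in liver and 175 in spleen, a ratio of 57.0 (10.1 to 2265), and Plbd1, a phospholipase-like protein of myeloid cells, 1 and 216, a ratio of 70.4 (12.5 to 2793). The single counts of Cd81, Plbd1 and Nt5e lay in liver replicates 2, 1 and 1, without which liver had none. The intervals cover counting error only. Cst3, the protease inhibitor cystatin C, had 236, 219, 311, 274 and 389 CPM in liver, against 1029.9 to 2569 (median 1498) CPM in spleen (-2.64 ± 0.25). H2-Ab1, a chain of an MHC class II molecule, had 88.6, 101, 62.2, 109.6 and 70.7 CPM in liver, against 911 to 2375 (median 1551) CPM in spleen (-4.07 ± 0.43, adjusted p 1.7e-08), and Cd74, the invariant chain that accompanies class II, 171, 87.8, 180.5, 129.8 and 53.0 CPM in liver, against 1067 to 2262 (median 1529.8) CPM in spleen (-3.63 ± 0.53). Their ranges did not overlap. Ctsh, a cathepsin on the plasmacytoid list, was called lower (1 count in liver and 88 in spleen), but lost that call in 9 of 19 alternatives, among them those without liver replicate 1, 2, 3 or 4 or spleen replicate 3 or 4.

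Killer lectin-like receptors and other natural killer genes were mostly lower: of 14 tested 9 fell and none rose (median -1.36). Among all genes tested, 13.3% were called lower and 12.5% higher. Without liver replicate 2 the number that fell was 5. Klra3, a Ly49 receptor for MHC class I, had 0, 13.5, 12.4, 14.4 and 17.7 CPM in the liver libraries, against 34.0 to 84.1 (median 60.5) CPM in the spleen libraries (-2.40 ± 0.38, adjusted p 8.69e-08), and Klra7 fell with -2.48 ± 0.46. The Ly49 genes are near-identical copies on chromosome 6, so counts may be split between them. Klrd1, the CD94 chain, and Klrk1, the activating receptor NKG2D, were not called (-0.18 ± 0.16 and -0.22 ± 0.23), and liver replicate 1 was the lowest for both. Without liver replicate 4 Klrd1 was called lower (-0.50, adjusted p 0.0319). Among T cell receptor gamma constant genes, Tcrg-C2 had 957, 948, 329.9, 349 and 159 CPM in liver, against 64.6 to 179 (median 134) CPM in spleen, so that liver replicate 5 lay within the spleen range (2.33 ± 0.33, adjusted p 3.15e-06), and Tcrg-C4 had 259.9, 138, 143, 162 and 159 CPM in liver, against 9.59 to 53.4 (median 32.8) CPM in spleen (2.70 ± 0.25, adjusted p 4.11e-15). Trdc, the delta constant gene that defines gamma delta T cells, averaged 2.36 ± 5.28 CPM in liver, all of it in replicate 1, and 23.6 ± 7.17 CPM in spleen, and was not called (adjusted p 0.0952). The gamma constant genes resemble each other, and alpha beta T cells can transcribe them.

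Costimulatory receptors were more often higher, with 11 of 18 tested rising and 3 falling (median 0.79). Over all genes tested, 12.5% were called higher and 13.3% lower. Icos, the inducible costimulator, had 65.0, 87.8, 193, 164 and 70.7 CPM in the liver libraries, against 18.7 to 42.5 (median 29.1) CPM in the spleen libraries, a rise of 2.08 ± 0.24 (adjusted p 5.29e-12). Tnfrsf4, the receptor OX40, rose by 2.14 ± 0.50, a call lost without liver replicate 4 (1.58, adjusted p 0.0566). Slamf1, a self-binding receptor of lymphocytes, rose by 2.79 ± 0.46, although its liver range (5.91 to 106 CPM) overlapped its spleen range (2.15 to 18.0 CPM). Of 20 survival and death genes 6 rose and none fell (median 0.18), among them Bcl2a1b, an anti-apoptotic relative of BCL-2 with near-identical copies, by 1.95 ± 0.22. All 9 GIMAP genes, which encode GTPases of lymphocyte survival, were tested and 6 rose (median 0.46), with Gimap7 at 0.99 ± 0.12.

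The liver CXCR6neg fraction of the same diet was set beside these values. Plasmacytoid dendritic cell genes moved with this fraction, at a summed 1436 to 2160 CPM in its libraries, 212 to 293 CPM in CXCR6pos liver and 470 to 796 CPM in spleen, and their part in the values below was not tested. The fraction was compared with the same spleen libraries, so its differences from spleen share those libraries with the ones above and are given side by side only. Of the genes tested, 645 (10.4%) were called, 354 (5.73%) higher and 291 (4.71%) lower, in CXCR6neg liver cells than in spleen. Junb averaged 6760.1 ± 243 CPM in CXCR6pos liver, 7264 ± 344 CPM in CXCR6neg liver and 549.9 ± 126 CPM in spleen, and Tnfaip3 964 ± 89.1, 703 ± 73.7 and 48.5 ± 20.9 CPM in the same order (SD, n = 5, 6 and 6). Both immediate-early genes were high in either liver fraction. Fos averaged 183 ± 29.8 CPM in CXCR6pos liver, 398 ± 81.0 CPM in CXCR6neg liver and 21.0 ± 7.25 CPM in spleen. Pdcd1 averaged 533 ± 59.6 CPM in CXCR6pos liver, 136 ± 28.2 CPM in CXCR6neg liver and 50.4 ± 25.6 CPM in spleen, and Gzmb 1819 ± 453, 629 ± 75.6 and 132 ± 60.7 CPM, so CXCR6neg cells lay between. Adgrg1 averaged 121 ± 36.9 CPM in CXCR6pos liver, 7.27 ± 5.07 CPM in CXCR6neg liver and 4.19 ± 2.90 CPM in spleen. Tcf7 averaged 56.1 ± 24.1 CPM in CXCR6pos liver, 286 ± 44.5 CPM in CXCR6neg liver and 302 ± 42.1 CPM in spleen, low in CXCR6pos liver cells and close in the other groups. Directly between the liver fractions, Adgrg1 was higher in CXCR6pos cells by 3.96 ± 0.42 and Pdcd1 by 2.0 ± 0.22, and Tcf7 differed by -2.36 ± 0.20 (adjusted p 6.07e-13, 2.26e-08 and 2.4e-18). In that comparison 294 genes (4.76%) were called higher and 394 (6.38%) lower.

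**Figure D4:**
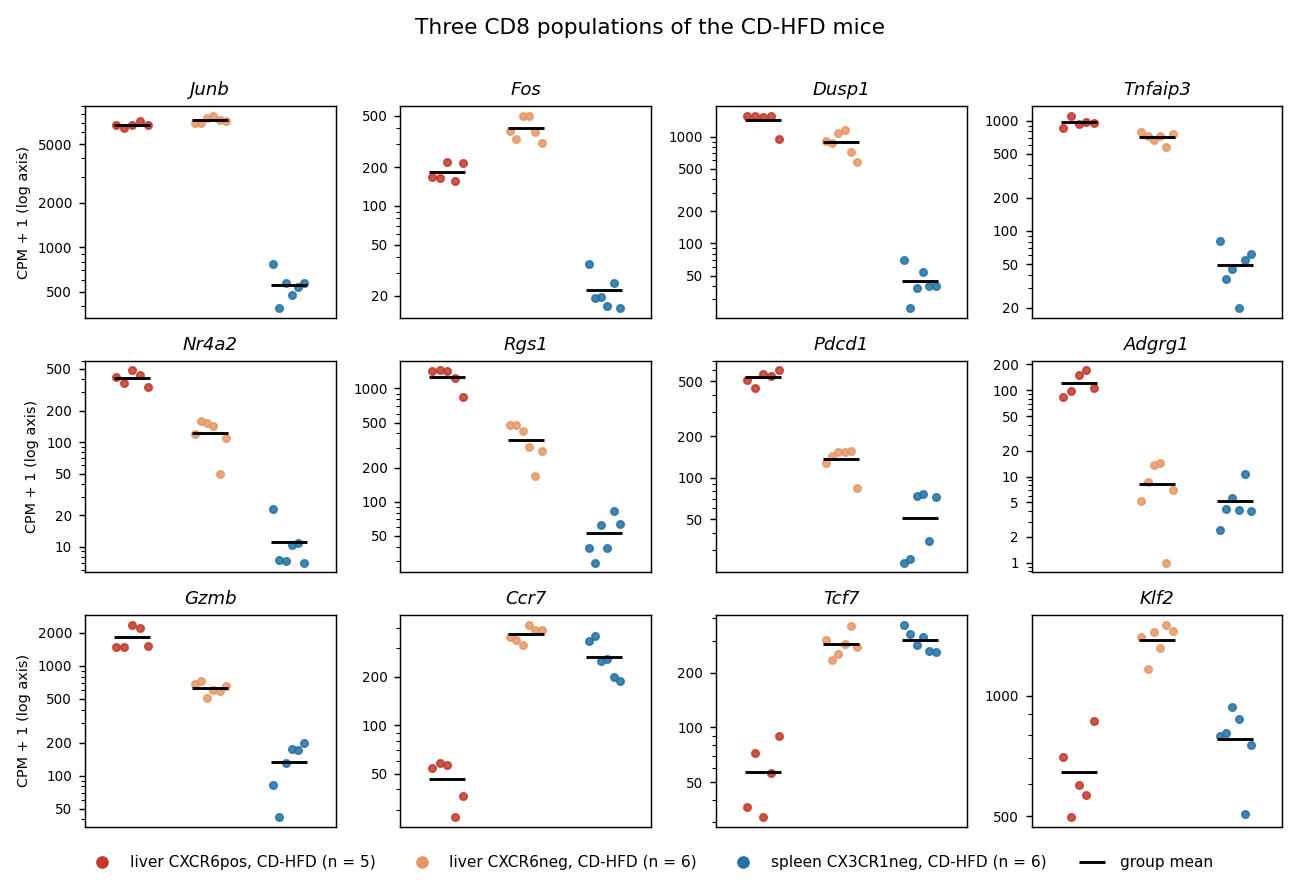
Points are CD-HFD libraries of liver CXCR6pos (left, n = 5), liver CXCR6neg (middle, n = 6) and spleen CX3CR1neg (right, n = 6), with CPM + 1 on a log y axis whose range differs between panels and bars at group means. Junb, Fos, Dusp1 and Tnfaip3 are high in both liver fractions, Pdcd1, Adgrg1 and Gzmb highest in CXCR6pos cells, and Tcf7 lowest there.

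The same pair of populations under ND shares no library with the CD-HFD pair. There 459 genes (7.43%) were called higher and 431 (6.98%) lower in liver CXCR6pos. Liver CXCR6pos replicate 1 under ND held 15633 counts, and replicate 6 stood apart by Cd74 (747 CPM, against 49.2 to 82.9 CPM in the other ND liver CXCR6pos libraries). Without replicate 1 the difference between the diets given below was called for 74 genes more positive and 184 more negative, and without replicate 6 for 61 and 151; what part these libraries have in single genes was not tested. The diets had 310 genes called higher in both, 40.3% of the CD-HFD list and 67.5% of the ND list, and 329 called lower in both, 40.2% and 76.3%. A further 13 genes were called in opposite directions. Tested directly, the difference between liver CXCR6pos and spleen differed between the diets for 246 genes (3.98%), more positive under CD-HFD for 75 (1.21%) and more negative for 171 (2.77%). Of the 24 inhibitory receptor and exhaustion genes 7 were among the 75, and none among the 171. Of the 18 naive genes 2 were among the 75 (Cd28 is 1 of them) and 7 among the 171, and of the 16 egress genes none and 9. Ctla4 rose by 4.84 ± 0.36 under CD-HFD, against 1.32 ± 0.58 under ND (adjusted p of the difference 0.00793), and Havcr2 by 2.74 ± 0.36, against -0.34 ± 0.63 (0.00539). Pdcd1 was 3.48 ± 0.22 under CD-HFD and 1.53 ± 0.41 under ND (0.0233), and Tox 1.97 ± 0.20 and 0.33 ± 0.28 (0.00288). Ccr7 differed by -2.59 ± 0.42 under CD-HFD and 0.19 ± 0.28 under ND (0.00112), and Il7r by -2.84 ± 0.23 and -0.48 ± 0.15 (5.65e-08). The ND liver libraries were split for Ccr7, at 246, 397, 119, 130, 528 and 380 CPM, below and above the 188 to 337 CPM of ND spleen. Tnf, not called under CD-HFD, was 4.29 ± 0.39 under ND (0.00477). Gzmb (3.96 ± 0.35 and 4.03 ± 0.40) and Tnfaip3 (4.29 ± 0.16 and 4.34 ± 0.18) were close between the diets, with adjusted p of the difference of 0.983 and 0.97, which does not show that they were equal.

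**Figure D5:**
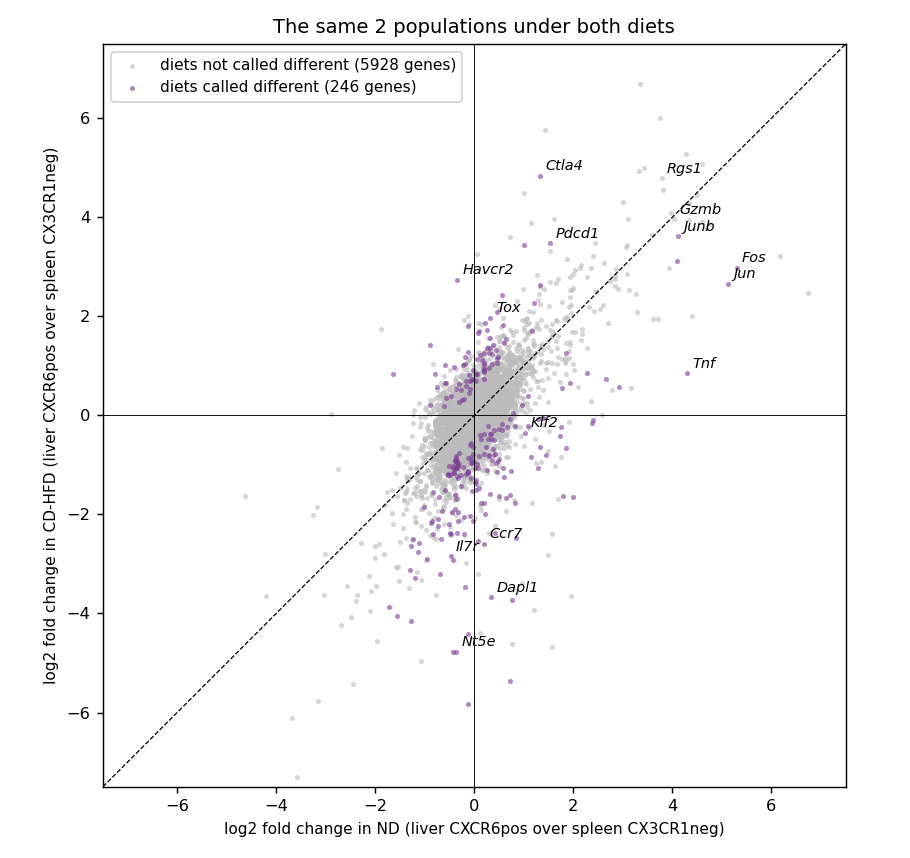
Each point is 1 of the 6174 genes tested, with the log2 fold change of liver CXCR6pos over spleen CX3CR1neg under CD-HFD on the y axis and under ND on the x axis. The dashed line marks equal values, and the 246 genes called different between the diets are purple. Ctla4, Havcr2 and Pdcd1 lie above the line, and Il7r, Ccr7, Nt5e, Fos and Tnf below it.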

How the data were processed

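CD8 T cells were sorted into lysis buffer and sequenced as 3′ ends of poly(A) RNA on a NextSeq 500, with sample barcodes and unique molecular identifiers, per the labels' protocols. The deposited values are counts per gene. The submitters' processing notes name GRCm38.p6 and DESeq2 1.14.1. No source used here gives the aligner, the collapsing of identifiers or the use of strand, so overlapping genes and near-identical copies are uncertain. Of 35 columns, 34 were matched to labelled samples and 1 was not used; the 35th labelled sample, replicate 6 of the CD-HFD liver CXCR6pos group, was not analysed here.

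Identical values stood under 2 ND labels, replicate 1 of liver CXCR6neg and replicate 6 of spleen, so both columns were dropped and 32 libraries remained. Genes passing filterByExpr (6174 of 22865) were fitted over all 6 groups with TMM factors and robust quasi-likelihood in edgeR 4.0.16 (limma 3.58.1, R 4.3.3), with Benjamini-Hochberg adjustment and a threshold of 0.05. The SE is the log2 fold change over the root of F. Counting intervals are exact at 95%, and the limit for 0 is 3 counts. In simulated counts for this comparison (6069 genes run), 72.9% of planted 2-fold and 99.0% of planted 4-fold changes were recovered with 7 false calls. Changes were planted only in a sample of the genes with higher counts, under an assumed spread. The rates are therefore not recovery rates over all genes tested, and recovery for genes with few counts was not tested. Alternatives included DESeq2 1.42.0.

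The comparison and the gene lists were chosen with earlier results of these data known. Genes named were, in each direction, the 20 largest called changes (20 CPM or more in 1 of the groups), per list the 4 smallest p, a fixed set of gate, residency, exhaustion and effector genes, and for the diets the 8 largest interactions each way. Outside that rule, chosen after their values were seen, were Btla, Ccl3, Cst3, Cxcr4, Eomes, Fos, Gzmm, Id2, Id3, Il18r1, Il6ra, Jaml, Jun, Klrd1, Klrk1, Lag3, Lef1, Maf, Myc, Nfil3, Slamf1, Tbx21, Thy1, Tigit, Xcl1 and the other-cell markers with few counts. Glrx, Sdcbp2, Fgl2 and Hilpda were named only because their promoter windows held the AP-1 letters. Gene coordinates are GENCODE M21 on GRCm38 and promoters RefSeq. Some genes are not reported here.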

Additional observations from a re-analysis of the deposited data

Results flagged for a closer look

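A library far from the others of its group by Dixon's criterion was found for 22 of 222 groups of values (111 genes in both populations). For normally distributed values, chance alone gives about 1 in 20 groups. A group at 0 in all libraries but 1 meets the criterion by construction, and the genes below with counts in a single library are such cases. The 22 are therefore not read as an excess. In the liver CXCR6pos group these were Prdm1 in replicate 1 (59.1 CPM, against 97.9 to 112 CPM in the rest of the group), Tox in replicate 1 (573 CPM, against 371 to 411 CPM in the rest of the group), Il10ra in replicate 4 (193 CPM, against 243 to 260 CPM in the rest of the group), Il6ra in replicate 1 (0 CPM, against 13.5 to 18.7 CPM in the rest of the group), Dusp1 in replicate 5 (955 CPM, against 1520 to 1570 CPM in the rest of the group), Ppp1r15a in replicate 5 (265 CPM, against 527 to 574 CPM in the rest of the group), Isg15 in replicate 5 (70.7 CPM, against 105 to 118 CPM in the rest of the group) and Tcrg-C4 in replicate 1 (260 CPM, against 138 to 162 CPM in the rest of the group). Genes with counts in a single liver library, at 0 in the rest, were Plbd1 (5.91 CPM in replicate 1), Cd81 (3.38 CPM in replicate 2), Mpeg1 (3.38 CPM in replicate 2), Nt5e (5.91 CPM in replicate 1), Ctsh (2.89 CPM in replicate 4) and Trdc (11.8 CPM in replicate 1). In the spleen CX3CR1neg group the values set apart were Cx3cr1 in replicate 4 (28.2 CPM, against 5.38 to 9.71 CPM in the rest of the group), Ctla4 in replicate 6 (36.1 CPM, against 3.14 to 11 CPM in the rest of the group), Batf in replicate 5 (151 CPM, against 77.5 to 97.3 CPM in the rest of the group), Csf1 in replicate 6 (21 CPM, against 0 to 4.86 CPM in the rest of the group), Nr4a2 in replicate 1 (21.9 CPM, against 6.01 to 9.71 CPM in the rest of the group), Klrk1 in replicate 4 (154 CPM, against 210 to 242 CPM in the rest of the group) and Hmgb2 in replicate 4 (251 CPM, against 192 to 207 CPM in the rest of the group). In spleen, Ier5l (1.37 CPM in replicate 1) had a count in that library only.

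For 45 of the 111 genes the difference between liver CXCR6pos and spleen CX3CR1neg itself differed between CD-HFD and ND, by the interaction term of edgeR's quasi-likelihood fit at an adjusted p under 0.05, where 246 of all 6174 genes tested (3.98%) did. Some of them, Ctla4, Ncf1, Nt5e, Dapl1, Prdm1, Pdcd1, Tnf and Havcr2, are among the largest interactions that the naming rule takes, so nothing is read from the count. The values are log2, the CD-HFD difference minus the ND difference. More positive under CD-HFD by more than 1 were Ctla4 (3.52), Havcr2 (3.08), Prdm1 (2.43), Pdcd1 (1.95), Tox (1.65), Batf (1.65), Icos (1.61), Eomes (1.33) and Il10ra (1.04). By up to 1 they were Cd28 (0.96), Ccl5 (0.84), Prf1 (0.69), Cd3e (0.68), Nkg7 (0.68) and Cd3g (0.60). More negative under CD-HFD by more than 2 were Ncf1 (-5.70), Nt5e (-4.40), Dapl1 (-4.00), Tnf (-3.44), Ccr7 (-2.78), Adgrg5 (-2.61), Itga1 (-2.53), Jun (-2.47), Xcl1 (-2.36), Il7r (-2.36), Fos (-2.32), Jaml (-2.13), Nsg2 (-2.13) and Ly6c2 (-2.03). The value of Ncf1 rests on the prior count, as it had no counts in liver CXCR6pos under CD-HFD, and is no bound. Dapl1 was uneven in the ND liver CXCR6pos libraries, at 49.2, 47.4, 48.2, 16.7, 576 and 332 CPM. By 1 to 2 they were Klra3 (-1.93), S1pr1 (-1.88), Tcf7 (-1.83), Gzmm (-1.82), Il18r1 (-1.79), Lef1 (-1.56), Klf2 (-1.39), Satb1 (-1.37) and Klrk1 (-1.31). By up to 1 they were Ppp1r15a (-0.98), Myc (-0.95), Tbx21 (-0.82), Klrd1 (-0.73), Rps18 (-0.57), Thy1 (-0.51) and Junb (-0.50).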

How the results depend on the processing

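For each of the 111 genes recomputed, 12 to 21 alternatives gave a value, and in these no called gene changed direction. Thinning the libraries to 57168 counts, the total of liver replicate 5, left 258 genes higher and 303 lower and kept 33.7% of the calls, so depth limits how many genes can be called. The other alternatives kept 76.8% to 99.8% of the 1589 calls. DESeq2's Wald test gave 779 higher and 728 lower, DESeq2 size factors 791 and 799, and no filter on low counts 707 and 1040. TMM factors without B cell, MHC class II, dendritic cell and erythroid genes, an alternative chosen after seeing the data, gave 777 and 802. Leaving out 1 library at a time gave 611 to 776 genes higher and 680 to 803 lower, and for the interaction with diet 51 to 88 and 129 to 184. No pairing by replicate number was seen: correlations of same-numbered deviations ran from -0.0478 to 0.0489, and 1 of 5 pairs was best with its own number. As the populations and organs differ, this cannot exclude that same-numbered libraries share an animal. With only the compared groups and the replicate block 616 genes were higher and 661 lower, against 689 and 746 without the block, and Klf2, Tcrg-C2 and Hba-a1 lost their calls under it (adjusted p 0.0679, 0.0956 and 0.193). For the interaction the block gave 90 and 166, against 82 and 176 without it. Thinning was not run for the interaction. Over named genes, 60 values lost their call, 2 gained one and 2219 did neither.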
